A study of Homo sapiens with 12 samples.

Results

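HCT 116 is an established human colorectal carcinoma line. The comparison described here is between 3 arrays of HCT 116 cells given an siRNA against BRG1 (siBRG1) and 3 arrays of HCT 116 cells given a control siRNA (siControl). These 6 arrays were taken by their titles from a study of 12, the other 6 being DLD1 cells, a further colorectal cancer line, under the same siRNAs. All 17687 genes with a single symbol were compared, from 21448 features on the array. The study asked what suppression of BRG1 does to human colorectal cancer cells. The cells carried no other label of genotype or treatment, and the labels used here give neither the siRNA sequences nor how long the cells were treated. The labels do not tell separate cultures from repeat arrays of 1 culture, so every p-value here weighs a difference against the spread of these arrays only, and that spread may be technical.

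BRG1, the product of SMARCA4, is an ATPase that drives the SWI/SNF complexes, which slide and evict nucleosomes and so open or close promoters and enhancers to transcription factors. A cell has either BRG1 or its paralogue BRM (SMARCA2) in a given complex, around a core of shared subunits. In the intestine BRG1 is known for its part in keeping stem cells, and in cancer cells for its links to Wnt, p53 and RB pathways. Several gene groups below are read against those pathways: p53 targets that stop the cell cycle or start cell death, replication genes that E2F factors switch on when RB releases them, and immediate early genes that signalling kinases switch on within minutes.

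SMARCA4 (Entrez gene 6597) checked the labels. It read 10.12, 10.15 and 9.59 in the siControl arrays and 6.78, 6.39 and 7.03 in the siBRG1 arrays, on the deposited log2 scale, where a difference of 1 is a 2-fold change. All 3 siBRG1 arrays lay below all 3 siControl arrays, a change of −3.22 (SE 0.21, limma adjusted p = 1.14e-06). An exact 2-sided permutation test over the 6 arrays gave p = 0.1, the smallest that 3 against 3 allows. The source names of 4 of the 6 samples carry other numbers for the line or the siRNA than their titles do, and SMARCA4 goes with the siRNA in the titles. It fell in both lines, so it does not check the label of the line. Of 8 markers of epithelium 7 lay above the median gene (6.86) in siControl cells, among them EPCAM at 15.83, the keratin KRT8 at 16.11 and the junction cadherin CDH1 at 9.65. Of 9 fibroblast markers 1 did (COL1A2, 8.20), and of 11 leukocyte and 10 endothelial markers 0 did. None of the epithelial, fibroblast or endothelial markers was called, and of the leukocyte markers CD68, a lysosomal membrane protein, rose from 5.76 ± 0.23 to 7.05 ± 0.20 (mean ± SD over 3 arrays a group, limma adjusted p = 0.0036), with the leukocyte antigen PTPRC at 3.87 and 4.04. The median over the leukocyte markers lay between 3.61 and 4.14 in the siControl arrays and between 3.77 and 4.14 in the siBRG1 arrays.

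Of the 17687 genes, limma called 1230 (6.95%) at an adjusted p under 0.05, 499 higher after siBRG1 (2.82%) and 731 lower (4.13%). The counts of rises and falls in each list below are to be set against 2.82% and 4.13%. The rise was at least 1 in 236 of them and at least 2 in 27, and the fall was at least 1 in 378 and at least 2 in 23. In all but 10 called genes, the 3 siBRG1 arrays lay on 1 side of the 3 siControl arrays, which over all genes held for 11.9% (all above) and 13% (all below). The siBRG1 arrays had slightly lower medians (a shift of −0.06), and centring every array on its median turned the split to 615 higher (3.48%) and 565 lower (3.19%), so that the share of higher calls went from 40.6% to 52.1%. Single arrays weighed on the count, which was 618 without siControl 2, 664 without siControl 3, 675 without siBRG1 2 and 640 without siBRG1 3. Of the 144 genes named here that were called, 83 passed in every fit that left out 1 of the 12 arrays. Below, a call of a gene named by the rule in the methods (154 genes) is given as lost where at least 1 of those 12 fits put its adjusted p at 0.05 or more, and the highest such p is printed. For other genes a loss is given only where the list counts show it. A call of theirs with no mark may also have been lost. Between 44 and 49 of the named calls were lost without siControl 2, siControl 3, siBRG1 2 or siBRG1 3, against 22 or fewer without each other array.

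**Figure D1:**
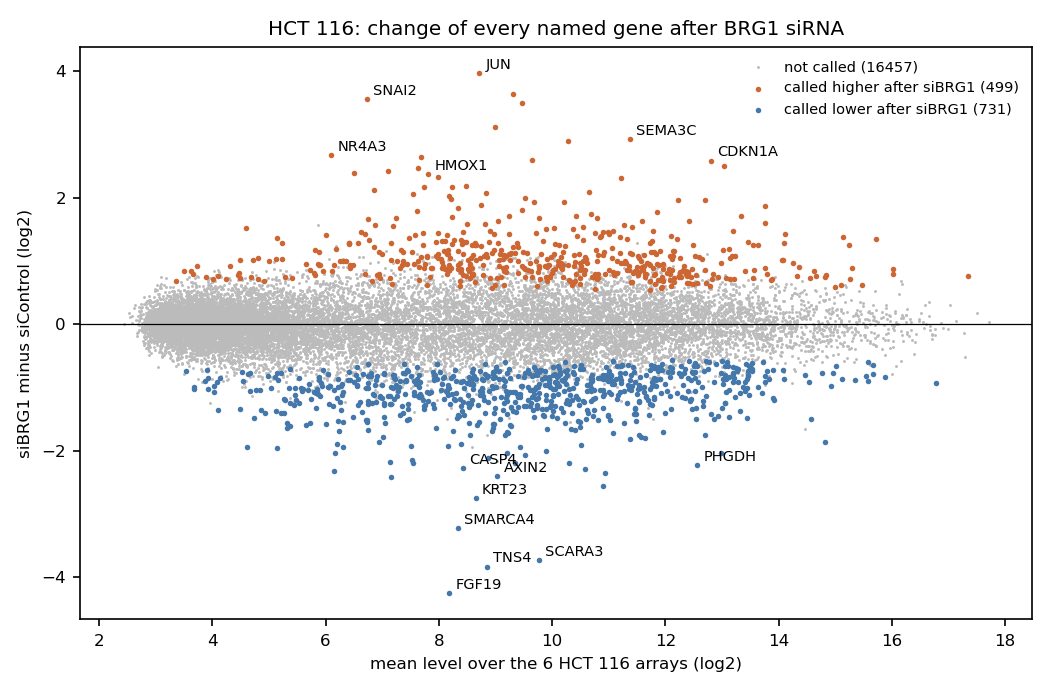
Change of each of the 17687 named genes after BRG1 siRNA in HCT 116 (vertical axis, log2) against its mean level over the 6 arrays (horizontal axis, log2). Grey points were not called, 499 orange points were called higher and 731 blue points lower, with JUN at the top and FGF19 at the bottom.

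The largest rise of all was that of JUN (Entrez gene 3725), the central subunit of the AP-1 transcription factor. JUN read 6.29, 7.07 and 6.81 in the siControl arrays and 10.17, 11.15 and 10.78 in the siBRG1 arrays. The lowest siBRG1 array stood more than 3 log2 units above the highest siControl array (change 3.98, SE 0.31, limma adjusted p = 5.15e-06). JUN is known to act on its own promoter through a variant AP-1 site, so the 250 bases before its start are shown, from the minus strand of chr1:58784048-58784297 in GRCh38.p14 (RefSeq). JUN was chosen for this after its values were seen. Capitals mark the match to any of the words TGACTCA, TGACGTCA and TGACATCA, searched on both strands.
JUN: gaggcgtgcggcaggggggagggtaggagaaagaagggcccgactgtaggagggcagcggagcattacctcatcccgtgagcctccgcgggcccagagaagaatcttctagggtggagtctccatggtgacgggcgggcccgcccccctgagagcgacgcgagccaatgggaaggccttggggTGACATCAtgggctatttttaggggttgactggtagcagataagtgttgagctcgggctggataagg
The match, TGACATCA, begins 67 bases before the start. One of these words stood in 9.69% of the measured genes that had a promoter window (8.03% of all windows of that length), in 12% of the genes called higher and in 6.71% of those called lower, a description with no test.

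Partners of JUN did not move with it as a family. Of 15 measured AP-1 subunits, 2 rose, JUN and JUNB, and 0 fell (median change 0.25, against −0.01 over all genes). JUNB, which forms the same dimers, read 7.85, 7.79 and 8.05 in the siControl arrays and 9.01, 8.59 and 8.71 in the siBRG1 arrays (change 0.87, limma adjusted p = 0.0126). All siBRG1 arrays lay above all siControl arrays, but the call was lost without siControl 2 (adjusted p = 0.0578), which leaves JUN as the 1 subunit called there. FOS and FOSB, usual dimer partners of JUN, had changes of 0.32 and 0.20, and FOSL1, a partner abundant in tumour cells, had 0.55 (limma adjusted p = 0.224). The stress-induced ATF3 had 0.88 with overlapping groups (limma adjusted p = 0.317). In DLD1, where SMARCA4 changed by −3.80, JUN had a change of 0.98 that did not pass, and HCT 116 and DLD1 differed in their JUN change (difference 2.99, limma adjusted p = 0.00777).

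Immediate early genes other than AP-1, which encode the first transcription factors and feedback proteins made after a signal, formed the broadest rising group outside p53. Of 27 measured, 12 rose (44.4%, against 2.82% of all genes), 0 fell and 15 did not pass, with a median change of 0.72. In 18 of the 27 all siBRG1 arrays lay above all siControl arrays, which held for 11.9% of all genes. The 3 members of the NR4A family of orphan nuclear receptors stood first. NR4A3 read 4.99, 4.71 and 4.59 in the siControl arrays and 7.08, 7.86 and 7.37 in the siBRG1 arrays (change 2.68, limma adjusted p = 5.15e-06). Its siControl values lay below the median gene, where, with no detection values in the table, a level cannot be told from background, so that fold is uncertain. NR4A2 went from 5.42, 5.80 and 6.45 to 7.51, 8.90 and 8.57 (change 2.43), and NR4A1 from 9.88, 9.75 and 9.19 to 11.40, 11.97 and 11.72 (change 2.09). In each of the 3 the groups were apart by more than 1 log2 unit. The siControl values of NR4A2 lay below the median gene too.

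EGR1, a zinc finger factor switched on by ERK and serum response factor, was steady within groups, at 11.73, 11.73 and 11.69 in the siControl arrays and 13.82, 13.63 and 13.62 in the siBRG1 arrays. The groups were more than 1 log2 unit apart (change 1.97, SE 0.19, limma adjusted p = 4.40e-05). The other members called were PPP1R15A, which restarts translation after stress (1.58), the Krüppel-like factor KLF6 (1.48), IER2 (1.35), the pseudokinase TRIB1 (1.25), ARC (1.14), the MAP kinase phosphatase DUSP1 (1.05) and the mRNA decay factors ZFP36 (0.87) and ZFP36L1 (0.77). CCN1 and CCN2, matrix proteins that YAP and serum also induce, missed the threshold with changes of 0.28 and 0.58 (limma adjusted p = 0.798 and 0.226). Mean levels of ARC, 5.30 and 6.45, lay below the median gene. Without 1 array, 8 to 12 members rose. In DLD1 0 members passed (median 0.02), and the changes of NR4A1, NR4A2, NR4A3 and EGR1 differed between the lines (differences 2.13, 2.93, 2.75 and 1.68, limma adjusted p of 0.0102, 0.0146, 6.67e-04 and 0.0131).

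Genes downstream of ERK moved both ways. Of 23 output and feedback genes (median 0.23), 5 rose and 2 fell, 21.7% and 8.7% against 2.82% and 4.13% of all genes. Of 15 EGF family ligands and receptors 2 rose (13.3%) and 0 fell (median −0.01). PHLDA1, a feedback protein of growth factor signalling, went from 14.34, 14.47 and 14.54 to 15.53, 15.89 and 16.08, and the receptor kinase EPHA2 from 10.03, 9.65 and 9.98 to 11.67, 10.995 and 10.998. Both sets of arrays were apart (changes 1.38 and 1.33, limma adjusted p = 8.79e-04 and 0.00333). DUSP4, a nuclear ERK phosphatase (1.09), SPRY1, an inhibitor of receptor kinase signalling (0.91), EREG, an EGF receptor ligand (0.72), and ERRFI1, an inhibitor of that receptor (0.77), rose as well. DUSP6, the cytoplasmic ERK phosphatase whose level is widely read as ERK output, fell instead, from 12.69, 12.90 and 12.99 to 11.81, 11.67 and 11.67 (change −1.14, limma adjusted p = 0.00328). ETV5, an ETS factor downstream of ERK, fell by 1.46 (limma adjusted p = 0.0203). The calls of ETV5, EREG and ERRFI1 were lost (highest adjusted p 0.0798, 0.102 and 0.09). Without siControl 2, siControl 3, siBRG1 2 or siBRG1 3, 4 ERK genes were called in all, and of the EGF list 0 were called without siControl 2, siBRG1 2 or siBRG1 3 and 1 without siControl 1 or siControl 3.

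**Figure D2:**
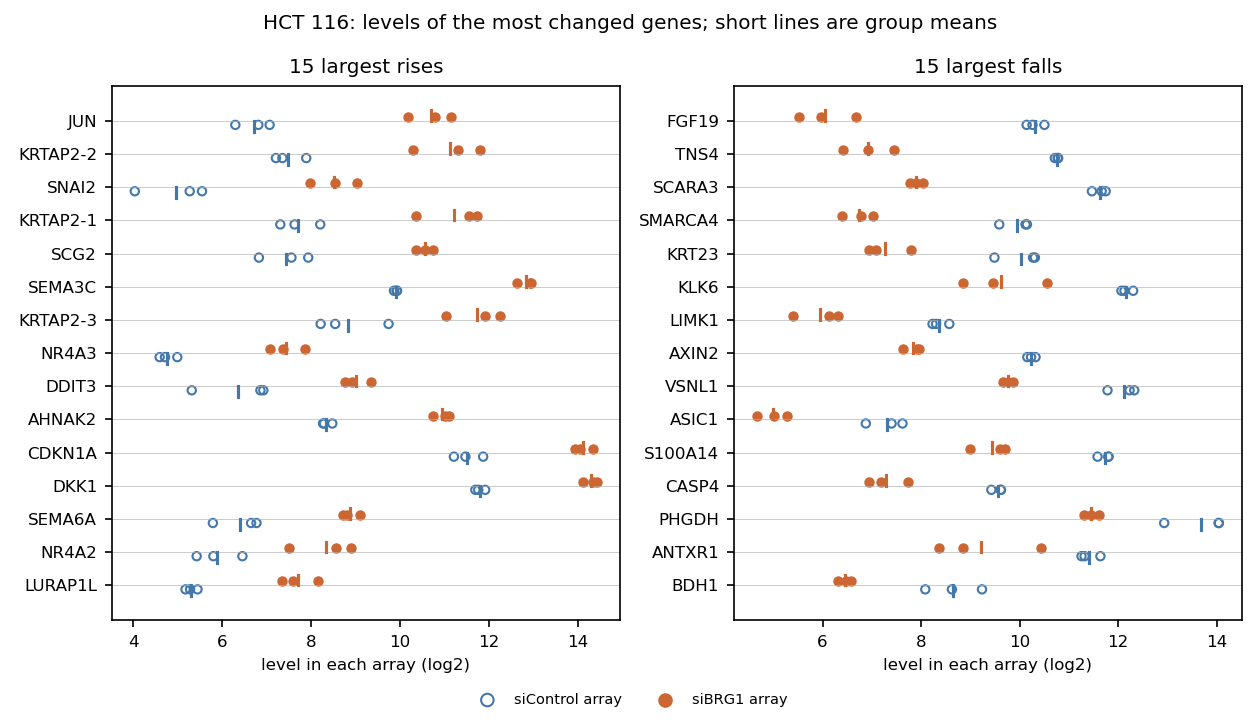
Level in each of the 6 HCT 116 arrays (horizontal axis, log2) of the 15 genes with the largest rise and the 15 with the largest fall among called genes whose groups do not overlap. Open circles are siControl arrays, filled circles siBRG1 arrays and short lines the group means. JUN rises from about the level of an average gene, whereas FGF19, TNS4 and SCARA3 fall from well above it.

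Among the 15 largest rises, the smallest was 2.40 and the next rise outside was 2.38 (the antioxidant gene HMOX1). SNAI2, a repressor of epithelial genes, read 4.03, 5.54 and 5.27 in the siControl arrays and 7.97, 9.02 and 8.53 in the siBRG1 arrays (change 3.56, SE 0.34, limma adjusted p = 4.40e-05). Every siControl value lay below the median gene and every siBRG1 value above it. SCG2, a secretogranin of neuroendocrine granules, went from 6.82, 7.93 and 7.56 to 10.37, 10.74 and 10.56 (change 3.12). SEMA3C, a secreted semaphorin that guides axons and vessels, was measured best, at 9.92, 9.86 and 9.93 against 12.63, 12.93 and 12.94 (change 2.93, SE 0.18, limma adjusted p = 9.40e-07). SEMA6A, a membrane semaphorin, rose from 6.65, 5.79 and 6.77 to 9.09, 8.81 and 8.71 (change 2.47). Of 30 semaphorins, plexins and neuropilins, these 2 rose and 3 fell: the receptor PLXND1 (−1.19), SEMA6B (−1.03, lost without siBRG1 2, adjusted p = 0.0513) and SEMA4D (−0.81). Mean levels of PLXND1, 5.89 and 4.69, lay below the median gene. Without siControl 1 the list had 4 calls, and that of SEMA4D was lost.

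A cluster of hair keratin-associated genes rose together. KRTAP2-1 read 8.20, 7.30 and 7.63 in the siControl arrays and 10.35, 11.74 and 11.54 in the siBRG1 arrays, KRTAP2-2 went from 7.89, 7.21 and 7.35 to 10.29, 11.79 and 11.30, and KRTAP2-3 from 9.74, 8.21 and 8.54 to 11.03, 12.26 and 11.90. The changes of these 3 genes, picked among genes with separate groups, were 3.50, 3.64 and 2.90 (limma adjusted p of 4.40e-05, 1.20e-05 and 5.07e-04). The KRTAP2 genes are near-identical copies and their probes may not tell them apart, so they are not independent. Array 1 of each group stood apart from the others, higher in siControl and lower in siBRG1. On chromosome 17 the next measured neighbours of other subfamilies were not called, with changes of −0.01 for KRTAP1-1, 0.52 for KRTAP1-3, 0.29 for KRTAP4-7 and 0.80 for KRTAP4-8. Among 18 keratin and KRTAP genes of the list, these 3 rose and KRT23, an epithelial keratin, fell from 9.49, 10.27 and 10.31 to 6.94, 7.80 and 7.09 (change −2.75, limma adjusted p = 4.65e-05). The simple epithelial keratins KRT8, KRT18 and KRT19 had −0.48, −0.50 and 0.53, none past the threshold.

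The other large rises were those of AHNAK2, a giant scaffold protein (8.47, 8.27 and 8.29 against 11.09, 11.01 and 10.74, change 2.60), DKK1 and CDKN1A, both described with their groups below, DDIT3, and LURAP1L (5.44, 5.28 and 5.17 against 7.58, 8.16 and 7.34, change 2.40). In AHNAK2 and LURAP1L the nearest values of the groups were more than 1 log2 unit apart. AHNAK2 was also called in DLD1 (1.08, limma adjusted p = 0.0398), and its change was larger in HCT 116 (difference 1.52, limma adjusted p = 0.0324). HMOX1, the stress-induced haem oxygenase, went from 6.52, 6.68 and 6.68 to 9.27, 9.03 and 8.70 (change 2.38, limma adjusted p = 1.74e-04).

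FGF19 (Entrez gene 9965), the ligand through which ileal cells signal to the liver and a growth factor of some tumours, fell most. It read 10.50, 10.26 and 10.14 in the siControl arrays and 6.67, 5.97 and 5.51 in the siBRG1 arrays. All siBRG1 values lay below the median gene, so the change of −4.25 (SE 0.28, limma adjusted p = 1.14e-06) is uncertain in size. Among FGF receptors, FGFR2 fell from 9.80, 9.76 and 9.79 to 8.29, 8.80 and 8.51 (change −1.25), and FGFR3 fell by 1.05 within the range of background. The list also named the receptor FGFR4 and the co-receptor KLB, and neither was among its calls. Of 24 FGF ligands and receptors, 3 fell and 1 rose (FGF11, 0.72, from 3.89 to 4.61, lost, highest adjusted p 0.134). Without 1 array, 3 or 4 genes of the list were called, and FGF11 was called in 2 of the 12 fits.

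TNS4, a tensin of focal adhesions, was even across controls, at 10.78, 10.71 and 10.77, and read 7.45, 6.92 and 6.41 after siBRG1 (change −3.83, SE 0.31, limma adjusted p = 6.38e-06). SCARA3, a scavenger receptor of the oxidative stress response, went from 11.47, 11.75 and 11.67 to 8.05, 7.77 and 7.89 (change −3.72, SE 0.18, limma adjusted p = 7.64e-08), the smallest p of any gene named. The groups of these genes were apart by more than 3 log2 units. KLK6, a secreted serine protease, fell from 12.13, 12.31 and 12.07 to 10.55, 9.45 and 8.84 (change −2.55, limma adjusted p = 8.45e-04), and siBRG1 1 stood more than 1 log2 unit above siBRG1 2. CASP4, the inflammatory caspase that senses lipopolysaccharide, fell from 9.62, 9.62 and 9.43 to 7.74, 7.19 and 6.93 (change −2.27), and ANTXR1, an anthrax toxin receptor, from 11.64, 11.26 and 11.32 to 10.43, 8.84 and 8.36 (change −2.20). The ANTXR1 fall was smallest in siBRG1 1.

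LIMK1, the kinase that phosphorylates and switches off cofilin, went from 8.30, 8.23 and 8.57 to 6.31, 5.40 and 6.14 (change −2.42, limma adjusted p = 1.34e-04), and DLD1 had a like value (−2.33, difference −0.09, SE 0.38). The remaining genes of the 15 largest falls were VSNL1, a neuronal calcium sensor (−2.35), ASIC1, an acid-sensing channel (−2.31, ending below the median gene), S100A14, a calcium-binding protein of epithelia (−2.29), PHGDH (described below) and BDH1, an enzyme of ketone bodies (−2.19). The last of the 15 stood at −2.19 and the next gene outside, GALNT12, also at −2.19. Of 35 integrin and focal adhesion genes, 5 fell, TNS4, LIMK1, the integrins ITGB5 (−0.91) and ITGA5 (−0.87), and the cofilin phosphatase SSH3 (−0.85), and the laminin chain LAMC1 rose (1.005). That list had a median of −0.34. Its 6 calls became 3 (TNS4, LIMK1 and LAMC1) without siControl 2, siControl 3, siBRG1 2 or siBRG1 3. The calls of ITGB5 and ITGA5 were lost (highest adjusted p 0.168 and 0.0803), and so was that of SSH3.

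Of 40 targets of p53 in the lists, 21 rose, 0 fell and 19 did not pass. Of 24 genes of cell cycle arrest, repair and feedback, 15 rose (62.5%, against 2.82% of all genes), 0 fell and 9 did not pass (median change 0.79). Of 16 genes of cell death, 6 rose (37.5%), 0 fell and 10 did not pass (median 0.06). In 4 of those 10 all siBRG1 arrays lay below all siControl arrays, which held for 13% of all genes. CDKN1A, the inhibitor of cyclin-dependent kinases through which p53 stops the cycle, read 11.87, 11.21 and 11.47 in the siControl arrays and 14.34, 14.06 and 13.93 in the siBRG1 arrays (change 2.59, SE 0.43, limma adjusted p = 0.00237). ZMAT3, an RNA-binding target, went from 8.89, 8.10 and 8.73 to 10.49, 10.50 and 10.14 (change 1.80), and RPS27L, a ribosomal protein paralogue, from 11.41, 11.74 and 11.67 to 13.22, 13.23 and 13.28 (change 1.64, limma adjusted p = 7.72e-05). In all 3 genes the lowest siBRG1 array was more than 1 log2 unit above the highest siControl array.

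GDF15, a secreted stress cytokine, read 9.71, 11.03 and 10.74 against 12.11, 12.28 and 11.80 (change 1.57), with siControl 1 low, and its call was lost without siBRG1 2 (adjusted p = 0.0502). The remaining arrest and feedback genes that rose included TRIAP1 (1.53), PHLDA3, an inhibitor of AKT (1.34), MDM2, the ligase that degrades p53 (1.25), the nuclease AEN (1.08), TIGAR, which lowers glycolytic flux (0.95), the bypass polymerase POLH (0.75), SFN, a 14-3-3 protein of the G2 arrest (0.75), PLK3 (0.73), the damage sensor DDB2 (0.73) and SESN1 (0.63). Not all of the list did so: CCNG1 had −0.52 and overlapping groups (limma adjusted p = 0.248), and GADD45A and PLK2 had 0.83 and 0.85 (limma adjusted p = 0.155 and 0.0906). Without 1 array, 10 to 15 members rose and 0 fell, and the median lay between 0.79 and 0.87.

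On the death side, PMAIP1, which encodes the BH3 protein NOXA, rose from 9.19, 10.48 and 10.48 to 11.62, 12.73 and 12.77. That change of 2.32 (SE 0.43, limma adjusted p = 0.00469) left more than 1 log2 unit between the groups. The death receptors TNFRSF10B (11.72, 11.46 and 11.49 against 12.63, 12.85 and 12.66, change 1.16), FAS (change 0.83, lost, highest adjusted p 0.12) and TNFRSF10A (0.65), the decoy receptor TNFRSF10D (1.09) and BAX, the pore former of mitochondria (0.54), rose too. The count of 6 became 3 (PMAIP1, TNFRSF10B and TNFRSF10D) without siControl 1, siControl 3, siBRG1 2 or siBRG1 3. TNFRSF10A and BAX were thus lost too (limma adjusted p = 0.0482 and 0.0481 in the main fit). The list's median turned to −0.01 without siBRG1 1. In DLD1 0 of the 40 genes of both lists passed (median −0.06, against 0.69 in HCT 116). The test between the lines passed for 2 of the 24 arrest and feedback genes (against 0.334% of all genes), PHLDA3 (difference 1.70, limma adjusted p = 0.0179) and RPS27L (1.24, limma adjusted p = 0.039). CDKN1A and PMAIP1 did not pass it (differences 2.66 and 2.88, limma adjusted p = 0.0898 and 0.0604).

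Across the wider family of death regulators, 4 of 34 BCL2 family genes, caspases and inhibitors rose and 4 fell. BIRC2, an inhibitor of apoptosis, went from 10.05, 10.36 and 10.09 to 11.33, 11.82 and 11.74 (change 1.46, limma adjusted p = 3.82e-04). CFLAR, an inhibitor of caspase-8, rose by 0.93, and BAX and PMAIP1 were the other rises. Besides CASP4, the falls were those of BIRC5, the survivin of dividing cells (−1.72), BID (−1.16) and BCL2L11, which encodes BIM (−0.86). In the main fit the list thus held rises and falls of both promoters and inhibitors of death. Its 8 calls became 4 without siControl 2, 5 without siControl 3 and 4 without siBRG1 3. The 4 left without siControl 2 or siBRG1 3 were BIRC2, PMAIP1, CASP4 and BIRC5. The calls of CFLAR, BAX, BID and BCL2L11 were lost.

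**Figure D3:**
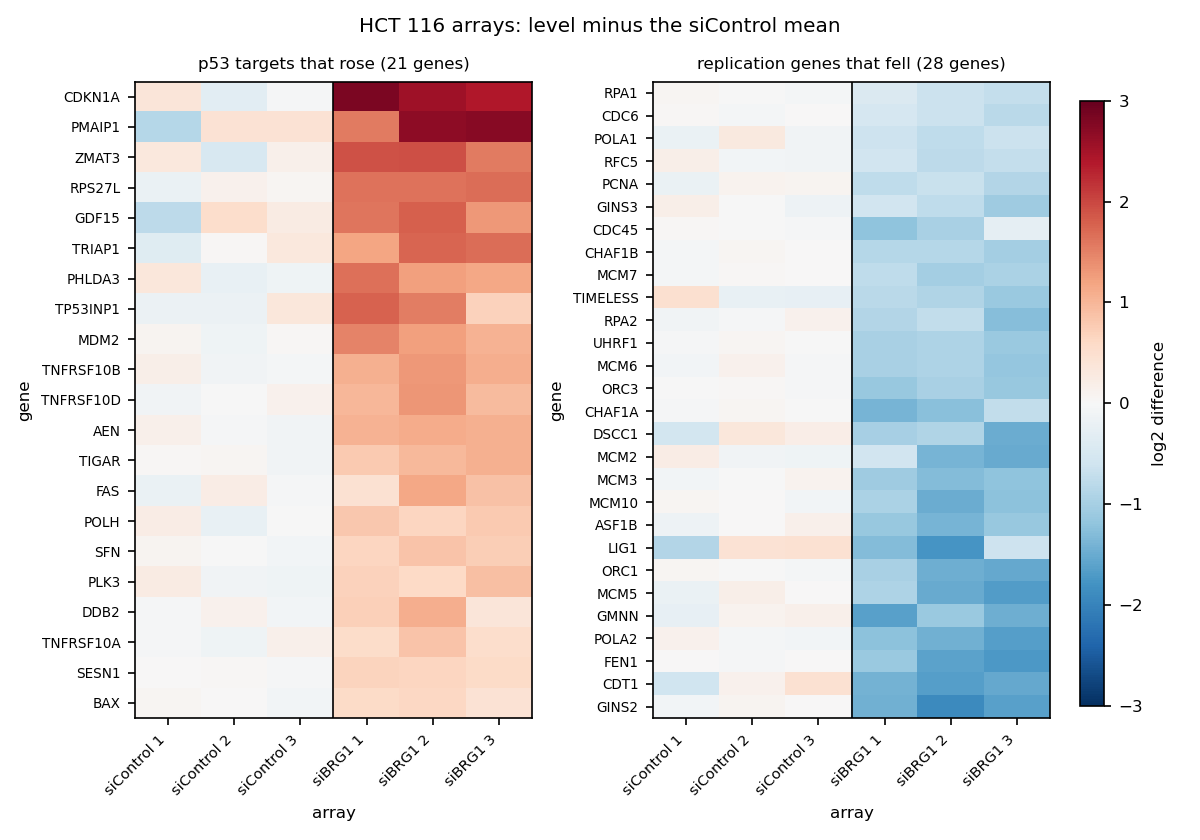
Level of each array minus the siControl mean of the same gene (colour, log2 difference) for the 21 p53 targets that rose and the 28 replication genes that fell in HCT 116. Columns are the 3 siControl and 3 siBRG1 arrays. The genes shown are those that passed the test, so the contrast between the siControl and siBRG1 columns is that of their selection. The test also favours genes with little spread within groups, so the evenness over the 3 siBRG1 arrays is in part selected too.

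Of 60 DNA replication genes in the lists, 28 fell and 0 rose. Of 30 genes of origin licensing and the replicative helicase, 15 fell (50%, against 4.13% of all genes), 0 rose and 15 did not pass (median −0.71). Of 30 fork polymerases and factors, 13 fell (43.3%), 0 rose and 17 did not pass (median −0.63). In 23 and 24 of these genes all siBRG1 arrays lay below all siControl arrays, which held for 13% of all genes. In bulk RNA, fewer cells in S phase and less RNA per cell cannot be told apart. The falls of GINS2, CDT1 and FEN1 were the largest. E2F factors are known to switch on such genes through sites close to the start, so the 250 bases before each start are shown, for GINS2 from the minus strand of chr16:85688955-85689204, for CDT1 from the plus strand of chr16:88803539-88803788 and for FEN1 from the plus strand of chr11:61792661-61792910 (RefSeq, GRCh38.p14). Capitals mark matches to the E2F words TTTGGCGC, TTTCCCGC, TTTGCCGC and TTTCGCGC, searched on both strands.
GINS2: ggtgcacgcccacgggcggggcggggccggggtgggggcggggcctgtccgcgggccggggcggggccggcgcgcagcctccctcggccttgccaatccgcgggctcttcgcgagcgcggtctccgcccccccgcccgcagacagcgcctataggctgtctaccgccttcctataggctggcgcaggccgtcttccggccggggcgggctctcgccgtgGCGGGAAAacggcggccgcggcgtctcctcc
CDT1: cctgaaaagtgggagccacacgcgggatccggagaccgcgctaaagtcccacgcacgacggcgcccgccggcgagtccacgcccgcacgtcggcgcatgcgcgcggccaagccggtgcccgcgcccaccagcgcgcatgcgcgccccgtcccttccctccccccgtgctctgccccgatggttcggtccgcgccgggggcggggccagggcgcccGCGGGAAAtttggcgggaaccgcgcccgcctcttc
FEN1: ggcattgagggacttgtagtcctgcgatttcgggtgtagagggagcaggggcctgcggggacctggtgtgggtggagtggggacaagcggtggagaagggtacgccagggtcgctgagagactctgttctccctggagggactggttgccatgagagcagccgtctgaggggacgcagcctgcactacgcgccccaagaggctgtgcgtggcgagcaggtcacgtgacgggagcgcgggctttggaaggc
GINS2 has GCGGGAAA, the reverse complement of TTTCCCGC, beginning 31 bases before the start, CDT1 has it 35 bases before, and the FEN1 window holds none of these words. Of the 28 fallen genes, 25 had a promoter in the table and 12 of those (48%) held a word, against 4 of 26 (15.4%) of the replication genes that were not called, 9.06% of all genes called lower, 4.47% of genes called higher and 4.55% of the measured genes with a promoter (2.79% of all windows of this length). These shares are a description with no test, and a match is not a bound site.

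GINS2, a subunit of the helicase that opens DNA at the fork, read 11.15, 11.32 and 11.24 in the siControl arrays and 9.79, 9.32 and 9.60 in the siBRG1 arrays (change −1.66, limma adjusted p = 0.00146). CDT1, which loads the MCM ring onto origins, went from 8.87, 9.61 and 9.94 to 8.05, 7.82 and 7.95 (change −1.54), and GMNN, which encodes its inhibitor geminin, from 11.90, 12.25 and 12.30 to 10.51, 11.03 and 10.67 (change −1.41). Loader and inhibitor fell alike, with groups that did not overlap. Of the MCM ring, MCM5 fell from 13.80, 14.18 and 14.005 to 13.07, 12.49 and 12.31 (change −1.37, limma adjusted p = 0.00164), and MCM3 (−1.19), MCM2 (−1.16), MCM6 (−1.02) and MCM7 (−0.91) fell with it. The origin recognition genes ORC1 (−1.33) and ORC3 (−1.09), MCM10 (−1.22), TIMELESS (−0.94), CDC45 (−0.82), GINS3 (−0.80) and the loader CDC6 (−0.66) completed the 15. Without 1 array, 9 to 15 fell (9 without siBRG1 2) and 0 rose.

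At the fork, FEN1, the endonuclease that trims Okazaki fragments, read 14.20, 14.15 and 14.19 against 13.06, 12.58 and 12.46 (change −1.48, limma adjusted p = 7.66e-04), and POLA2, a subunit of the primase-polymerase, went from 9.18, 8.99 and 8.98 to 7.83, 7.62 and 7.39 (change −1.44). Their control arrays lay close together, and their siBRG1 arrays all lay more than 1 log2 unit lower. The other falls were those of ASF1B, a histone chaperone (−1.23), CHAF1A and CHAF1B of chromatin assembly (−1.13 and −0.91), DSCC1 of the clamp loader (−1.13), UHRF1, which carries DNA methylation through replication (−1.01), RPA2 and RPA1 of the single-strand binder (−0.96 and −0.60), the sliding clamp PCNA (−0.77), RFC5 (−0.69) and POLA1 (−0.68). LIG1, the ligase of Okazaki fragments, had overlapping groups (6.62, 7.92 and 7.95 against 6.20, 5.73 and 6.88, change −1.23, lost, highest adjusted p 0.168). The count of 13 became 6 without siControl 2 or siControl 3, 7 without siBRG1 3, and 8 without siBRG1 2, DLD1 siControl 1 or DLD1 siControl 3, with 0 rising in any of these fits. In DLD1 0 of the 60 replication genes passed (median −0.27, against −0.66 in HCT 116), and 1 of the 60 passed the test between the lines.

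Nucleotide supply and uracil removal followed in part. Of 27 genes, 5 fell and 0 rose (median −0.24). UNG, the glycosylase that cuts uracil from DNA, went from 9.52, 10.22 and 10.39 to 8.09, 8.69 and 8.12 (change −1.74, limma adjusted p = 0.00258), and DUT, which keeps uracil out by hydrolysing dUTP, from 12.53, 12.66 and 12.90 to 11.0003, 11.64 and 11.27 (change −1.39). The groups of both were well apart. ADSL of purine synthesis (−1.41), CTPS1 of CTP synthesis (−0.93, lost, highest adjusted p 0.11) and the thymidine kinase TK1 (−0.92) were the others. Without siControl 2, siControl 3, siBRG1 2 or siBRG1 3, 3 fell (UNG, DUT and ADSL), so the call of TK1 was lost too.

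Of 26 recombination, Fanconi and checkpoint genes, 5 fell and 0 rose (median −0.33): BRCA1 (9.58, 10.01 and 9.95 against 8.66, 8.87 and 8.78, change −1.07), the helicases BLM (−0.99) and BRIP1 (−0.95), FANCG (−0.87) and the nuclease EXO1 (−0.56). The groups of BRCA1 did not overlap. None of the 5 passed without siControl 2, siControl 3 or siBRG1 3, and 1 to 3 did without siControl 1, siBRG1 1, siBRG1 2, DLD1 siControl 2, DLD1 siControl 3 or DLD1 siBRG1 3 (highest adjusted p 0.0776 for BRCA1, 0.109 for BLM, 0.149 for BRIP1 and 0.132 for FANCG). Of 62 mitosis genes, 6 fell and 0 rose (median −0.33): BIRC5 (11.61, 11.98 and 12.22 against 10.29, 10.27 and 10.10, change −1.72, limma adjusted p = 8.89e-04), the spindle protein TACC3 (−1.21), INCENP of the chromosomal passenger complex (−1.08, lost, highest adjusted p 0.0898), CDCA5, which protects cohesion (−0.89), the checkpoint kinase TTK (−0.80) and FOXM1, which drives mitotic genes (−0.71). CCNB1 and CDC20 had −0.52 and −0.32 and did not pass (limma adjusted p = 0.159 and 0.403).

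Of 24 G1 cyclins, kinases and inhibitors, 3 fell and 0 rose (median −0.23). CCND3, a D-type cyclin, went from 10.91, 10.45 and 10.48 to 9.75, 9.02 and 9.17 (change −1.30, limma adjusted p = 0.00445), whereas CCND1 had 0.23. The groups of CCND3 were apart. SKP2, which marks the inhibitor p27 for destruction, fell by 0.80 and the pocket protein RBL1 by 0.77 (both lost, highest adjusted p 0.0747 and 0.074), and 1 gene was called without siControl 2, siControl 3 or siBRG1 3. Among 35 replication-dependent histone genes limma called 0, with 4 at an unadjusted p under 0.05. H2BC14 had the largest change, −1.65 (15.57, 15.33 and 14.99 against 13.61, 13.55 and 13.79, limma adjusted p = 0.108, unadjusted p = 0.0125). Its siBRG1 arrays all lay below its siControl arrays, and it was called with HCT 116 fitted alone (limma adjusted p = 0.00342) and without DLD1 siBRG1 3 (limma adjusted p = 0.00236).

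**Figure D4:**
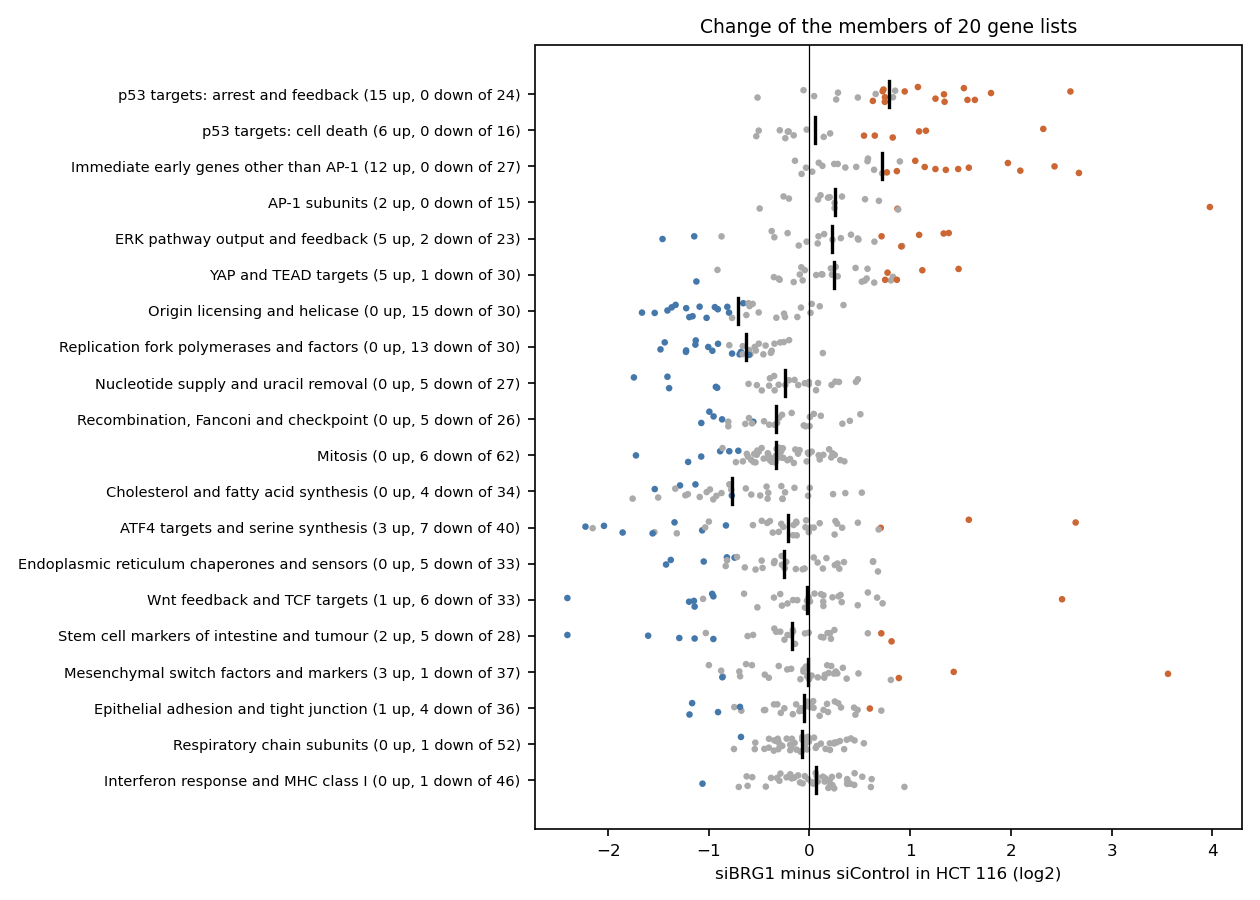
Change of each measured member of 20 of the gene lists in HCT 116 (horizontal axis, log2). Points are genes, orange where called higher, blue where called lower and grey where not called, and the black bar is the list median. The p53 arrest list (median 0.79) and the immediate early list (0.72) lie to the right of 0, the replication lists (−0.71 and −0.63) and cholesterol synthesis (−0.77) to the left, and most others straddle it.

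AXIN2, which β-catenin switches on and which brakes the pathway, read 10.16, 10.32 and 10.23 in the siControl arrays and 7.63, 7.93 and 7.95 in the siBRG1 arrays (change −2.40, SE 0.16, limma adjusted p = 1.14e-06). DKK1, a secreted Wnt antagonist, moved the other way, from 11.91, 11.69 and 11.76 to 14.12, 14.43 and 14.34 (change 2.51, SE 0.33, limma adjusted p = 4.76e-04). Both groups of both genes were tight and more than 2 log2 units apart. Of 33 Wnt feedback and TCF target genes, 6 fell and 1 rose, DKK1 (median −0.03). The other falls were those of CEMIP, a hyaluronidase (−1.20), TRIB2 (−1.15), RNF43, which removes Wnt receptors (−1.14), LGR4, a receptor for R-spondin (−0.97), and SOX9 (−0.95). Mean levels of CEMIP, 6.07 and 4.88, lay below the median gene. MYC had 0.48 (limma adjusted p = 0.128) and CCND1 0.23. The 7 calls became 4 without siControl 2 or siBRG1 2, and those of CEMIP, TRIB2 and RNF43 were lost (highest adjusted p 0.104, 0.101 and 0.0863). The changes of AXIN2 and DKK1 differed between the lines (differences −2.01 and 2.31, limma adjusted p = 0.00117 and 0.048), with −0.39 and 0.19 in DLD1. DKK1 lay far below the median gene in DLD1 (3.63 and 3.82), so its value there does not show that it did not respond.

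Stem cell markers of intestine and tumour included 5 falls and 2 rises among 28 (median −0.17). CD24, a surface marker of tumour stem cells, went from 9.16, 10.32 and 10.72 to 7.73, 8.82 and 8.85 (change −1.60, lost, highest adjusted p 0.0891). MSI1, an RNA-binding protein of stem cells, read 8.65, 8.29 and 8.20 against 6.72, 7.34 and 7.20 (change −1.29, limma adjusted p = 0.00237). Neither gene's groups overlapped. AXIN2, RNF43 and SOX9 were the other falls, and KLF5 (0.71) and the adhesion molecule ALCAM (0.81) the rises. LGR5, the crypt stem cell receptor, read 2.79 and 3.37 on average in the groups, at the level of background.

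Of 27 intestinal identity factors, 3 fell and 1 rose. MYB, a factor of crypt progenitors, read 8.93, 8.91 and 9.54 in the siControl arrays and 6.28, 7.69 and 7.61 in the siBRG1 arrays (change −1.93, limma adjusted p = 0.00532), with siBRG1 1 lowest. EHF, an ETS factor of epithelia, went from 13.45, 13.10 and 13.30 to 12.30, 11.67 and 11.41 (change −1.49, limma adjusted p = 9.77e-04), and SOX9, a factor of the crypt base, from 11.89, 11.99 and 11.60 to 10.92, 10.82 and 10.87 (change −0.95). In each the siBRG1 arrays lay below the siControl arrays. KLF5, a factor of dividing crypt cells, rose by 0.71 (lost, highest adjusted p 0.058). Genes of differentiated cells were called at shares near those over all genes (2.82% higher and 4.13% lower). The shares were 0% higher and 3.03% lower for absorptive genes, and 3.03% each way for secretory genes. Of 33 absorptive genes 1 fell, the peptidase DPP4 (−1.46, lost, highest adjusted p 0.0637, with 2 genes called without siControl 1 and 0 without siBRG1 3), and of 33 secretory genes SCG2 rose and GALNT12, which starts mucin O-glycans, fell (10.52, 10.24 and 10.57 against 8.52, 8.06 and 8.18, change −2.19, limma adjusted p = 1.33e-04). In siControl cells 6 of the absorptive and 2 of the secretory genes lay above the median gene.

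SNAI2 was not joined by most mesenchymal genes. Of 37 switch factors and markers, 3 rose and 1 fell (median −0.02). ZEB1, like SNAI2 a repressor of CDH1, went from 8.79, 8.13 and 7.87 to 9.54, 9.84 and 9.72 (change 1.43, lost without siControl 3, adjusted p = 0.0533), and ACTA2, smooth muscle actin, rose by 0.89 (lost, highest adjusted p 0.0733). The groups of ZEB1 did not overlap. VIM, CDH2 and TWIST1, the usual markers, had −0.02, 0.15 and 0.37 at levels below the median gene in both groups. Of 36 epithelial adhesion and junction genes, 4 fell and 1 rose (median −0.06). The falls were those of AP1M2, a sorting adaptor of the basolateral membrane (10.83, 10.89 and 11.13 against 9.93, 9.83 and 9.52, change −1.19, limma adjusted p = 0.00125), ESRP1, the epithelial splicing factor (−1.17), GRHL2, which maintains CDH1 (−0.91), and CDS1 (−0.69), and the rise that of the tight junction gene OCLN (0.60). CDH1 itself had −0.25 (limma adjusted p = 0.624). ESRP1, GRHL2 and CDS1 were lost (highest adjusted p 0.0892, 0.074 and 0.153). The mesenchymal count was 1 without siControl 3, and the epithelial count was 1 without siControl 2, siControl 3 or siBRG1 3, 2 without siBRG1 2 and 3 without DLD1 siControl 3. AP1M2 passed in every such fit, so the call of OCLN was lost too.

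Of 35 TGF-beta and BMP feedback genes (median −0.03), 2 rose and 2 fell, 5.71% each way against 2.82% and 4.13% of all genes. SKIL, a co-repressor of SMADs, read 6.81, 7.44 and 7.98 against 8.62, 9.72 and 9.42 (change 1.84, limma adjusted p = 0.00444), and SMAD3, the transducer, 10.14, 10.34 and 10.30 against 11.85, 11.70 and 11.62 (change 1.46, limma adjusted p = 0.00152). The inhibitory SMAD6 (−1.26) and SMAD7 (−1.07) fell, and both were lost (highest adjusted p 0.115 and 0.147). Mean levels of SMAD6, 6.69 and 5.43, lay below the median gene. Of 30 YAP and TEAD genes, 5 rose and 1 fell (median 0.24). LATS2, the kinase that restrains YAP, went from 8.23, 7.96 and 8.28 to 9.85, 9.79 and 9.27 (change 1.48, limma adjusted p = 0.00156), and AJUBA (1.12), PTPN14 (0.87), NUAK2 (0.78) and IGFBP3 (0.75) rose, while the factor TEAD2 fell (−1.12). The groups of LATS2 did not overlap. The 6 calls became 3 without siControl 3, siBRG1 1 or siBRG1 2, and the 4 TGF-beta calls became 2 without siControl 2, siControl 3, siBRG1 1 or siBRG1 3. PTPN14 and TEAD2 were lost (highest adjusted p 0.114 and 0.0553), and so were NUAK2 and IGFBP3. Mean levels of IGFBP3, 4.90 and 5.65, lay below the median gene.

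Of 19 ephrins and Eph receptors, EPHA2 rose (5.26%, against 2.82% of all genes) and 3 ephrin-A ligands fell (15.8%, against 4.13% of all genes). The 3 were EFNA4 (−1.37), EFNA2 (−1.11) and EFNA3 (−0.96), of which EFNA4 and EFNA2 started below the median gene. EFNA2 and EFNA3 were lost (highest adjusted p 0.0674 and 0.116), and the list had 2 calls without siControl 3 or siBRG1 3. Of 28 Notch genes 2 fell (7.14%), the ligand JAG1 (−1.005) and DTX4 (−1.01, below the median gene). Without siControl 1, siControl 2, siControl 3 or siBRG1 2, 0 or 1 did (both lost, highest adjusted p 0.154 and 0.112). Of 38 proteases and inhibitors 2 fell (5.26%), KLK6 and ADAM19, a sheddase (7.41, 7.52 and 7.22 against 6.28, 6.16 and 5.93, change −1.26, limma adjusted p = 8.24e-04). Without siBRG1 1 or DLD1 siBRG1 3, 4 were called.

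Of 40 ATF4 targets and serine synthesis genes, 7 fell and 3 rose (median −0.21). PHGDH, the first enzyme of serine synthesis, read 12.94, 14.05 and 14.04 in the siControl arrays and 11.30, 11.60 and 11.45 in the siBRG1 arrays (change −2.22, limma adjusted p = 0.00351). PSAT1, the second enzyme, went from 15.23, 15.96 and 16.03 to 13.77, 14.06 and 13.82 (change −1.86, limma adjusted p = 0.00273), and ASNS, which makes asparagine, from 13.68, 14.02 and 14.29 to 11.90, 11.88 and 12.09 (change −2.04, lost without siControl 3, adjusted p = 0.0554). The siControl 1 array was the lowest control for all 3, and still above every siBRG1 array. PCK2 (−1.56), the glutamine carrier SLC1A5 (−1.34), PYCR1 of proline synthesis (−1.07) and the tRNA synthetase WARS1 (−0.83) fell as well. Mean levels of PCK2, 6.10 and 4.54, lay below the median gene.

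DDIT3, the stress factor CHOP, rose from 5.31, 6.86 and 6.92 to 8.76, 8.91 and 9.35 (change 2.64, limma adjusted p = 9.95e-04), and ATF4 itself by 0.71 and its target PPP1R15A by 1.58. Other targets had large changes that did not pass: CHAC1, a glutathione-degrading enzyme, −2.15 (SE 0.68, limma adjusted p = 0.0726), the cystine carrier SLC7A11 −1.32 (limma adjusted p = 0.27) and TRIB3 −0.999 (limma adjusted p = 0.196). The 10 calls became 6 without siControl 2, 5 without siControl 3 and 6 without siBRG1 2 or siBRG1 3. Of 33 endoplasmic reticulum chaperones and sensors, 5 fell and 0 rose (median −0.25): MANF (−1.42), CRELD2 (10.07, 9.995 and 9.94 against 8.86, 8.56 and 8.45, change −1.38, limma adjusted p = 9.47e-04), HERPUD1 (−1.05), PDIA4 (−0.82) and PDIA6 (−0.74). CRELD2, a secreted protein of the stress response, had groups more than 1 log2 unit apart and was called in DLD1 too (−1.11). Without siControl 2, siControl 3, siBRG1 2 or siBRG1 3, CRELD2 alone of the 5 was called. MANF, HERPUD1 and PDIA4 were lost (highest adjusted p 0.0888, 0.13 and 0.184), and so was PDIA6.

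Cholesterol and fatty acid synthesis had the lowest median of any list, −0.77, with 11.8% of its genes called lower, against 4.13% of all genes. Of 34 genes, 4 fell and 0 rose: SCD5, a desaturase (11.09, 11.21 and 11.48 against 9.42, 10.13 and 9.62, change −1.54, limma adjusted p = 0.00445), SREBF2, the master regulator of the pathway (9.90, 10.44 and 10.42 against 9.25, 8.74 and 8.90, change −1.29, limma adjusted p = 0.00469), FDPS of the isoprenoid branch (−1.13) and the elongase ELOVL6 (−0.77). SCD5 and SREBF2 had groups that did not overlap. In 19 of the 34 genes all siBRG1 arrays lay below all siControl arrays, which held for 13% of all genes. The median over the genes was 10.72, 11.10 and 10.98 in the siControl arrays and 10.26, 10.33 and 10.10 in the siBRG1 arrays. FDPS and ELOVL6 were lost (highest adjusted p 0.132 and 0.0913). IDI1, an isomerase of the pathway, had −1.50 (limma adjusted p = 0.0837). The count moved with the arrays that share the estimate of spread: it was 14 with HCT 116 fitted alone, 12 without DLD1 siBRG1 1, 10 without DLD1 siBRG1 3, and 2 without siControl 2, siControl 3, siBRG1 1 or siBRG1 2. In DLD1 0 of the 34 passed (median −0.37).

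Of 40 glycolysis and hypoxia genes 3 fell, the phosphofructokinase PFKL (10.88, 11.14 and 11.65 against 9.55, 9.72 and 9.81, change −1.53, limma adjusted p = 0.00116), PDK3 (−1.24, lost, highest adjusted p 0.104) and the carbonic anhydrase CA12 (−0.87, lost, highest adjusted p 0.156), and 5 did without siControl 1, and 1 without siControl 2, siBRG1 1 or siBRG1 2. PFKL's groups were more than 1 log2 unit apart. Mean levels of CA12, 6.83 and 5.96, lay below the median gene. Of 37 NRF2 targets and antioxidant genes, 2 rose and 4 fell (median −0.30): HMOX1 and GCLC, the rate-limiting enzyme of glutathione synthesis (1.20, lost, highest adjusted p 0.158), against the efflux pumps ABCC3 (−1.77, lost, highest adjusted p 0.0743) and ABCC2 (14.44, 13.64 and 13.48 against 12.65, 12.32 and 12.20, change −1.46, limma adjusted p = 0.00549), PGD (−1.02) and PRDX2 (−0.81). The list had 3 calls without siControl 2 or siControl 3 and 2 without siBRG1 3. Those 2 were HMOX1 and ABCC2, so the calls of PGD and PRDX2 were lost too. Of 37 lysosome and autophagy genes 5 fell, among them ATP6V1H, a proton pump subunit (−1.02), and the cathepsins CTSS (−0.99, near background) and CTSZ (−0.87), and the autophagy receptor SQSTM1 rose (0.80). All 4 were lost (highest adjusted p 0.0967, 0.0808, 0.0876 and 0.0744), and 1 or 2 lysosome genes were called without siControl 2, siControl 3, siBRG1 2 or siBRG1 3.

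Several lists lay near the background. Of 52 respiratory chain subunits 1 fell (SDHA, −0.68, lost, highest adjusted p 0.153, with a list median of −0.07), and in 11 of the 12 fits without 1 array 0 did. Of 43 MYC partners and ribosome biogenesis genes, UTP15 rose (0.83, lost, highest adjusted p 0.0696) and RPL22L1, a ribosomal protein paralogue, fell (−1.20, lost, highest adjusted p 0.13), with −1.80 in DLD1. Without siControl 2, siControl 3, siBRG1 1 or siBRG1 3 it had 1 call, and without siBRG1 2 it had 0. Of 37 NF-kappaB targets and chemokines IL18 rose (0.91) and TNFAIP2 fell (−1.18), both lost (highest adjusted p 0.162 and 0.143), with 0 calls without siControl 2, siControl 3, siBRG1 2 or siBRG1 3 and 1 without DLD1 siControl 2, DLD1 siControl 3, DLD1 siBRG1 2 or DLD1 siBRG1 3. Of 46 interferon and MHC class I genes OAS3 fell (−1.06, limma adjusted p = 0.00676), with 2 calls without siControl 1 and 3 without siBRG1 1. The medians of these 4 lists lay between −0.07 and 0.13.

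Among the other subunits of BRG1's own complexes, 3 of 27 fell (11.1%, against 4.13% of all genes) and 0 rose (median −0.17). The 3 were BCL7B (9.30, 8.89 and 8.91 against 8.15, 7.67 and 7.39, change −1.30, limma adjusted p = 0.0125), SMARCD3 (−1.10) and BRD7 of the PBAF form (12.10, 12.18 and 12.15 against 11.52, 11.34 and 11.51, change −0.68). The BCL7B groups did not overlap. SMARCA2, the alternative ATPase, had −0.73 (SE 0.32, limma adjusted p = 0.205) at levels between 4.14 and 5.67, below the median gene, so its change cannot be read here. All 3 calls were lost (highest adjusted p 0.0636, 0.148 and 0.108), with 0 left without siBRG1 3 and 1 without siControl 2 or siBRG1 2. Of 23 Polycomb genes, whose complexes act against SWI/SNF at many promoters, 4 rose and 1 fell. PHF19, a cofactor that recruits PRC2, fell from 9.34, 9.94 and 9.99 to 7.97, 8.60 and 7.999 (change −1.57, limma adjusted p = 9.77e-04). JARID2, also a PRC2 cofactor (1.09), RYBP and PCGF1 of variant PRC1 (1.005, and 0.97, lost, highest adjusted p 0.076) and the chromodomain gene CBX6 (0.82) rose. The 5 calls became 3 (PHF19, JARID2 and RYBP) without siControl 2, siControl 3 or siBRG1 2, so that of CBX6 was lost too.

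The test between the lines, HCT 116 change minus DLD1 change, was passed by 59 genes (0.334%), of which 56 were also called in HCT 116. In DLD1 limma called 12 genes higher (0.0678%) and 23 lower (0.13%), and 18 genes were called in both lines. SNAI2 had the largest positive difference (3.94, SE 0.48, limma adjusted p = 0.00195), followed by SCG2 (3.13), KRTAP2-1 (3.05), JUN (2.99) and NR4A2 (2.93). FGF19 (−4.70, SE 0.39, limma adjusted p = 5.24e-05), SCARA3 (−3.75), TNS4 (−3.50), CYP1A1 (−3.27) and ANTXR1 (−2.78) had the most negative. FGF19 and ANTXR1 lay far below the median gene in DLD1 controls (4.57 and 3.60), where a fall of the size in HCT 116 could not have been measured. SCARA3 and TNS4 stood at 11.61 and 11.81 there. SCG2, NR4A2 and SNAI2 were also below the median gene in both DLD1 groups. CYP1A1, a cytochrome P450 of the aryl hydrocarbon receptor, is the exception among them, since it rose in DLD1 (3.09) and had −0.18 in HCT 116, at 5.93, 5.88 and 5.44 against 6.17, 4.75 and 5.79. Single arrays moved this count: it was 29 without siControl 2, 30 without siControl 3, 26 without siBRG1 3, 38 without DLD1 siControl 1, 26 without DLD1 siControl 3 and 37 without DLD1 siBRG1 3.

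**Figure D5:**
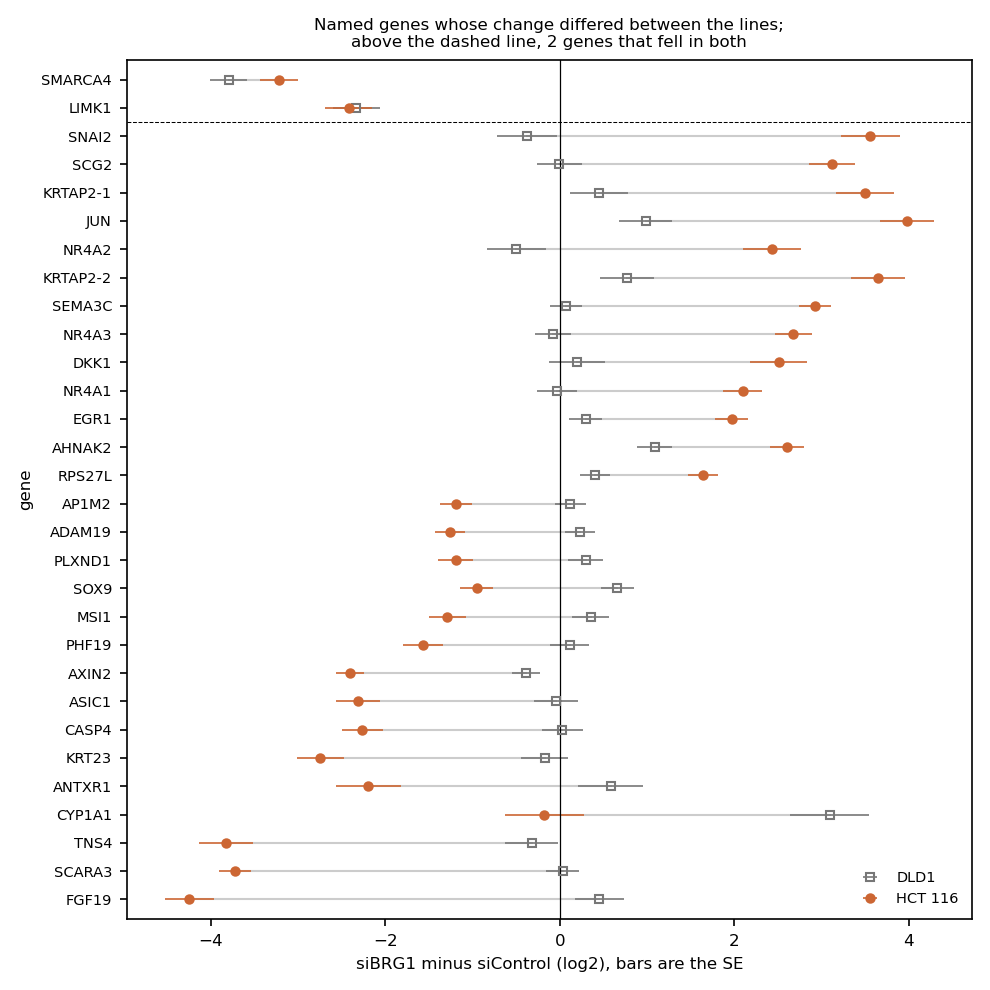
Change after BRG1 siRNA (horizontal axis, log2, bars are the SE) in HCT 116 (filled circles) and DLD1 (open squares) for the named genes whose change differed between the lines. SMARCA4 and LIMK1, above the dashed line, fell in both. Under that line the DLD1 squares farthest from 0 are those of CYP1A1 (3.09), AHNAK2 (1.08) and JUN (0.98).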

How the data were processed

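RNA of the 12 samples was hybridised to Affymetrix whole-transcript arrays, 3 for each of 4 groups. The authors deposited log2 values. Per the submitters' processing notes, RMA and Affymetrix Power Tools were used to make them. For versions, genome build and further scaling the labels name nothing. Between 94 and 112 values per array exceed 16, the limit of a scanner on this scale, so a fold at the top of the scale may not be the scanner's. Array medians lay between 6.36 and 6.50, and the number of arrays limits the precision.

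Samples were grouped by title. Of 21448 features 17709 had 1 symbol, and the brightest feature stood for each of 20 genes with several. limma 3.58.1 (R 4.3.3) fitted 4 group means over the 12 arrays with eBayes, with p-values adjusted by Benjamini-Hochberg over the 17687 genes and a call at 0.05. The members and the 46 lists were chosen with earlier results of these data known. Named were SMARCA4 and SMARCA2, the 15 largest rises and 15 largest falls among called genes whose groups do not overlap, the 5 largest each way among such genes above the median level in both groups, up to 4 called members per list (up to 2 of the largest change where none was called), and the 5 largest differences each way between the lines. Other genes given by name were chosen after their values were seen. The main fit did not take the replicate numbers to pair the arrays. The deviations of same-numbered HCT 116 arrays correlated at 0.299, 0.149 and 0.03, and a replicate block gave 2123 calls against 1230. Whether the numbers mark pairs was not tested. On simulated data, 2% of genes changed by 0.5, 56% of those changed by 1 and 98% of those changed by 2 or 3 were called (50 genes each), with 6 unchanged genes called among the 17687. The simulation changed far fewer genes than the 1230 called in the data. Its noise was drawn for each gene alone, with no shift between arrays. Its rates check the fit and need not hold for this comparison. Alternatives were a replicate block, HCT 116 fitted alone, centring, quantile normalization, filters on low levels, another prior, array weights, the mean of features, stricter thresholds and each array left out.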

Additional observations from a re-analysis of the deposited data

Results flagged for a closer look

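The changes of 28 named genes differed between HCT 116 and DLD1 by limma's test of the difference, at an adjusted p under 0.05. The value given for each is the HCT 116 change minus the DLD1 change on the log2 scale. It was positive for SNAI2 (3.94), SCG2 (3.13), KRTAP2-1 (3.05), JUN (2.99), NR4A2 (2.93), KRTAP2-2 (2.87), SEMA3C (2.86), NR4A3 (2.75), DKK1 (2.31), NR4A1 (2.13), EGR1 (1.68), AHNAK2 (1.52) and RPS27L (1.24). It was negative for FGF19 (−4.70), SCARA3 (−3.75), TNS4 (−3.50), CYP1A1 (−3.27), ANTXR1 (−2.78), KRT23 (−2.57), CASP4 (−2.29), ASIC1 (−2.27), AXIN2 (−2.01), PHF19 (−1.68), MSI1 (−1.64), SOX9 (−1.61), ADAM19 (−1.49), PLXND1 (−1.49) and AP1M2 (−1.31). In DLD1, 12 of the 28 genes lay below the median gene in both groups, where a change may not be measurable. Of these, 7 had a negative difference (FGF19, ANTXR1, KRT23, ASIC1, MSI1, ADAM19 and PLXND1), and a fall in DLD1 may not have been measurable for them. Of the 7, ASIC1 lay nearest to the median gene, at 6.42 in DLD1 controls. The other 5 of the 12 had a positive difference (SNAI2, SCG2, NR4A2, NR4A3 and DKK1). CYP1A1 is the 1 gene of these that was not called in HCT 116.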

How the results depend on the processing

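Of 4346 values of named genes, lists and counts under the alternatives, 3795 kept their side of the threshold or stayed within 1.5 times, 338 of the same direction no longer passed, 205 counts moved, 8 passed newly, and 0 values called under either setting turned direction. Without 1 array, 2 named genes that were not called (CYP1A1 and COL1A1) and the medians of 13 lists near 0 turned sign. With the replicate block the histone genes H2BC14 and H3C1 passed (limma adjusted p = 0.0315 and 0.0404). The 1230 calls became 2123 with the replicate block, of which 1222 were among the 1230, 2035 with array weights, 418 at an adjusted p under 0.01 and 88 against a minimum change of 1.5-fold. Leaving out 1 array gave 618 to 1271. The 59 genes that differed between the lines became 102 with the replicate block and 162 with array weights, and 26 to 71 without 1 array. SMARCA4 lay between −3.40 and −3.05 without 1 array. The causes were not tested. The array has no detection values in the table used here, so changes that start or end below the median gene are uncertain in size: 87 genes called higher started there and 168 called lower ended there.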

Other observations

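Some gene families were picked by symbol after the values were seen, so their counts are descriptions. They are not all outside the lists, since DUSP1, DUSP4, DUSP6 and GALNT12 were described above. Of 482 measured ZNF genes, which encode zinc finger proteins, 25 were called higher (5.19%, against 2.82% of all genes) and 4 lower (0.83%, against 4.13%), with a median change of 0.11. Of 23 DUSP genes, dual-specificity phosphatases, 7 were called higher (30.4%) and 2 lower (8.7%). Of 22 tetraspanins 0 were called higher and 6 lower (27.3%). Of 17 GALNT genes, which start mucin-type O-glycans, 1 was called higher (5.88%) and 5 lower (29.4%), with a median of −0.44.

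The chromosome 11 neighbours of FGF19 differed among themselves. ANO1, a chloride channel, fell by 1.998 (limma adjusted p = 0.00201) and CTTN, the actin-binding cortactin, fell by 0.90 (limma adjusted p = 0.00931). CCND1, LTO1, FGF4 and FGF3, which lie nearer to FGF19, had changes of 0.23, 0.14, −0.12 and −0.02, none past the threshold. FGF4 and FGF3 read 5.61 and 4.86 on average in siControl cells, below the median gene. A fall of the size in FGF19 could not have been measured for these genes. KRTAP2-4, the remaining gene of the KRTAP2 cluster, rose by 1.63 (limma adjusted p = 0.0267).

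Of 3739 features with no symbol, 48 were called higher and 77 lower, with changes of up to 3.02 and down to −2.62. Both shares were smaller than those over the 17687 genes (2.82% higher and 4.13% lower).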
